A study of Mus musculus with 8 samples.

Results

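The 9 plexin genes of the mouse were followed in RNA sequencing of fasted liver from 4 WT and 4 S155A mice. Members were taken by gene symbol (Plxna1, Plxna2, Plxna3, Plxna4, Plxnb1, Plxnb2, Plxnb3, Plxnc1 and Plxnd1) from a table of 45706 genes, and all 9 were present in it. The family was chosen by a measured value, the CPM of Plxna3, which was lower in every S155A liver than in any WT liver, so the difference of Plxna3 between genotypes is described below and not tested. All mice were C57BL/6J females, 4 months old, fed regular chow and then fasted overnight. S155A mice carry a knock-in made by CRISPR-Cas9, homozygous according to the study, that replaces a serine of the lipid droplet protein PLIN5 by alanine in every tissue. WT mice carry the unmodified gene. Each library came from the liver of a separate mouse, read as a stranded mRNA library.

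Plexins are single-pass membrane receptors for semaphorins, a family of secreted and membrane-bound guidance proteins. Inside the cell they carry a GTPase-activating domain that acts on small GTPases of the Rap and Ras type, so that ligand binding changes adhesion and the cytoskeleton. A plexins mostly bind class 3 semaphorins together with a neuropilin as co-receptor, or class 6 semaphorins directly. B plexins bind class 4 semaphorins and can associate with the receptor tyrosine kinases MET and ERBB2. Plexin C1 is the receptor of the membrane-anchored semaphorin 7A, and plexin D1, of blood vessels, is the receptor of semaphorin 3E.

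Because the A plexins descend from a common gene, the first point was whether their reads can be told apart. In pairwise alignments of the longest coding sequences of GENCODE release M21 (build GRCm38), the 4 A plexins were 64.5% to 69.5% identical to one another. The longest run of bases that Plxna3 shares with any other plexin was 29 bases, with Plxna4. That place is shown here because it holds this longest run. Whether longer stretches elsewhere differ at fewer positions was not searched. The Plxna3 stretch lies at chrX:74341611-74341671 on the forward strand, in exon 31 of 33, within the coding sequence. Its counterparts are at chr6:89320934-89320994 (Plxna1, reverse strand), chr1:194810137-194810197 (Plxna2, forward strand) and chr6:32157909-32157969 (Plxna4, reverse strand), each in exon 30 of 32. All are written 5′ to 3′ along the transcript, and capitals mark bases that differ from Plxna3.
Plxna3: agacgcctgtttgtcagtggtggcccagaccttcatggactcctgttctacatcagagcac
Plxna1: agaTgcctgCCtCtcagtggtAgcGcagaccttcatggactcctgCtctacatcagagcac
Plxna2: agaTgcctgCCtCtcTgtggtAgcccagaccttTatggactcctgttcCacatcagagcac
Plxna4: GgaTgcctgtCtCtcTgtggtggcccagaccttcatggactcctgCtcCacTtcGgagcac
Over these 61 bases Plxna1 differed from Plxna3 at 7 positions, Plxna2 at 8 and Plxna4 at 9. Of the 8064 different 31-base words in the Plxna3 transcripts, 0 occurred in a transcript of any other gene, and Plxnb2 and Plxnb3 also shared none. Plxna1 had the smallest share of words of its own, 91.4%, nearly all of the shared ones lying in Gm26811, an antisense gene that overlaps it. Antisense genes also overlap Plxna4 (Plxna4os1, Plxna4os2 and Plxna4os3) and Plxnb1 (Gm7628). The libraries were stranded, but whether the counting used strand is not given in the sources used here, so a share of the counts of these 3 plexins may belong to their antisense partners. No annotated gene overlaps Plxna3, which lies on the X chromosome from 74329066 to 74344689, or Plxnb3 (X, 73757090 to 73772514).

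Fasted liver held mostly B plexin mRNA. Levels are given as CPM (counts scaled to the library size after TMM normalization), and as CPM per kilobase of annotated exon wherever genes are compared with one another. Plxnb2 was highest, at 26.9 ± 4.01 CPM per kilobase (mean and SD over 8 mice), and made up 64.3% of the summed mean level of all plexins. Plxnb1 followed at 7.83 ± 1.80 and Plxnd1 at 3.39 ± 0.453 CPM per kilobase. The ranges of these 3 genes over the 8 mice did not overlap, nor did that of Plxnd1 with any gene below it. Plxna1 (1.21 ± 0.243), Plxnc1 (1.18 ± 0.336) and Plxna2 (1.004 ± 0.292 CPM per kilobase) had overlapping ranges, and no order among them is read. With the longest transcript in place of all exons as the length, Plxna2 became the highest of these 3, at 1.56 CPM per kilobase. Plxna4 (0.155 ± 0.0459) and Plxna3 (0.138 ± 0.0984 CPM per kilobase) overlapped as well. Plxnb3 was lowest, at 0.0283 ± 0.0165 CPM per kilobase, below the lowest value of Plxna3 in every mouse.

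**Figure D1:**
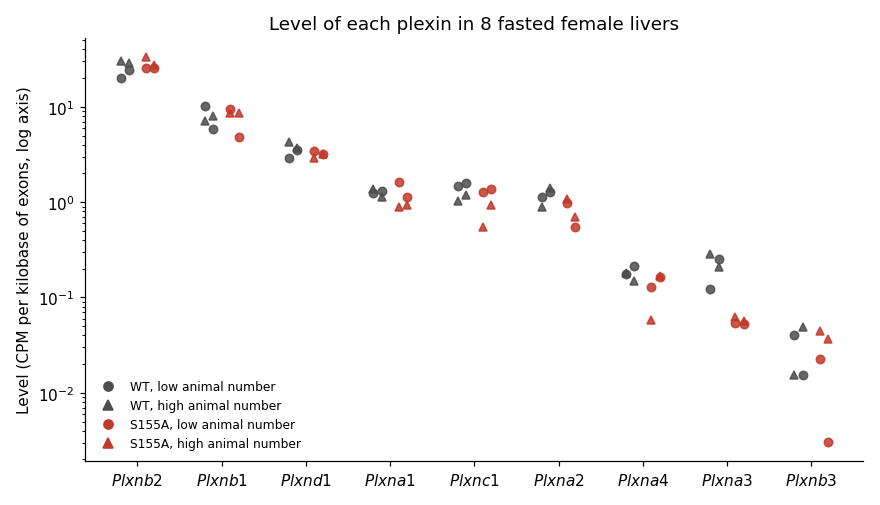
Level of each plexin (CPM per kilobase of annotated exon, log axis) in each of 8 mice, WT in grey and S155A in red, with circles for low and triangles for high animal numbers. The levels run from 26.9 for Plxnb2 to 0.0283 for Plxnb3 on average, and Plxna3 is the gene whose WT and S155A points separate.

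The libraries held between 39709785 and 54540864 estimated counts, and 14629 genes, all 9 plexins among them, had enough counts to be tested. With edgeR's quasi-likelihood test, 0 genes (0%) had an adjusted p under 0.05, 497 genes (3.40%) had an unadjusted p under 0.05, and DESeq2 called 6 genes (0.0410%) at an adjusted p under 0.05. Plin5 itself was at 206 ± 32.3 CPM in WT and 328 ± 117 CPM in S155A livers (SD, n = 4 each). Its log2 fold change was 0.67 (SE 0.24, unadjusted p = 0.0193, adjusted p = 0.993 with edgeR). The values overlapped through S155A replicate 3, at 192 CPM, and the other S155A livers were above all WT livers. The mutation does not remove the mRNA of Plin5, so its level does not check the labels. The labels name hepatocytes as the cell type of these livers, and the 6 hepatocyte markers summed to between 90910 and 130800 CPM. Markers of other liver cells were also detected in every library, with sums of 182 to 241 CPM for sinusoidal endothelial cells, 149 to 360 CPM for Kupffer cells, 121 to 340 CPM for stellate cells and 27.2 to 85.5 CPM for cholangiocytes. The values are therefore read as whole liver, in which fewer cells of a type and less RNA per cell cannot be told apart. In marker sums 3 libraries stood apart from their group, WT replicate 2 in pancreatic acinar markers (41.8 CPM against 4.18 to 6.43 in the other 7), S155A replicate 3 in lymphocyte markers (2066 CPM against 19.7 to 47.7), and WT replicate 4 in stellate markers (340 CPM against 254 to 263 in the other WT livers) and, to a smaller extent than S155A replicate 3, in lymphocyte markers (47.7 CPM).

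Plxna3, the receptor by which the family was picked, was at 0.970, 2.25, 1.66 and 2.01 CPM in WT replicates 1 to 4. In the S155A livers it was at 0.426, 0.496, 0.449 and 0.415 CPM in the same order. Every S155A liver was below every WT liver, and the S155A livers lay close together while the WT livers spread over more than a doubling. These levels rest on 52 to 113 counts per WT library and 17 to 24 counts per S155A library. With so few counts, how close together the S155A livers lie is itself uncertain, and their SD may understate the uncertainty. The difference in spread between genotypes was not tested. The means were 1.73 ± 0.558 CPM in WT and 0.447 ± 0.0359 CPM in S155A livers (SD, n = 4 each), a log2 fold change of -1.94 with an SE of 0.32. This difference selected the gene and is given without a test.

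Values without single mice are given as a further description. Leaving out each mouse in turn gave log2 fold changes between -2.14 (without WT replicate 1) and -1.79 (without WT replicate 2), and leaving out the 3 libraries that stood apart gave -1.56. In both genotypes the labels give animal numbers under 200 to replicates 1 and 4 (low numbers) and over 800 to replicates 2 and 3 (high numbers), and they do not say what the numbers stand for. Among mice with low numbers S155A minus WT was -1.64 in mean log2 CPM, and among mice with high numbers it was -1.95. Plxna3 was picked for being lower in every S155A liver, so the sign of all these differences was fixed in advance. They show only how the size of the difference varied. Markers of nerve and Schwann cells (plexin A3 is best known from neurons) summed to 1.26 to 3.31 CPM in WT and 1.22 to 2.96 CPM in S155A livers, with between 2 and 5 of the 8 markers at 0 in each library.

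Per kilobase, the mean of Plxna3 was somewhat above that of Plxna4 in WT livers and below it in S155A livers, but not in every mouse. The WT means were 0.219 ± 0.0709 CPM per kilobase for Plxna3 and 0.180 ± 0.0267 for Plxna4, with Plxna3 the higher in 3 of 4 mice. In S155A livers the means were 0.0567 ± 0.00456 for Plxna3 and 0.131 ± 0.0511 CPM per kilobase for Plxna4, with Plxna3 the lower in all but replicate 2. As a share of the summed A plexin level per kilobase, Plxna3 took 4.58%, 10.5%, 7.24% and 8.34% in WT replicates 1 to 4. The shares in S155A livers were 1.92%, 3.03%, 3.07% and 2.77%, all below the lowest WT share. As they contain the Plxna3 values, these shares are not a separate line of evidence.

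**Figure D2:**
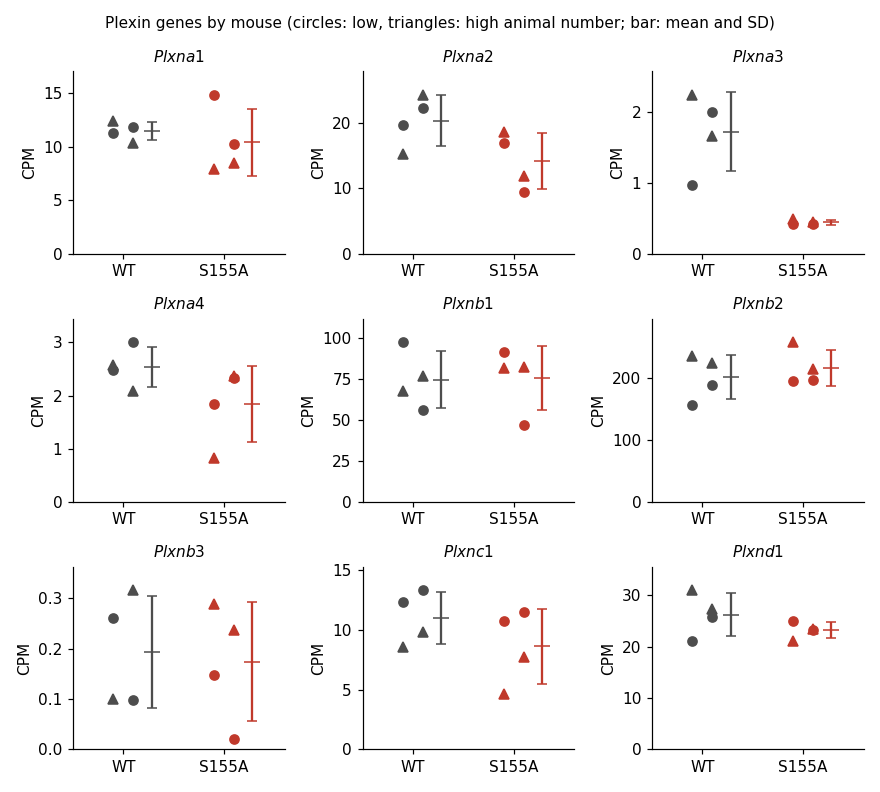
CPM of each plexin in the 4 WT and 4 S155A livers, with each gene on its own linear axis from 0, circles for low and triangles for high animal numbers, and the mean with SD beside the points. Plxna3 is the gene without overlap (0.970 to 2.25 against 0.415 to 0.496 CPM), while the other 8 plexins overlap between genotypes.

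Among the other 8 plexins, 0 were called at an adjusted p under 0.05 and 0 had groups that did not overlap, where 337 of all genes tested (2.30%) were without overlap in either direction and 199 (1.36%) were without overlap and lower in S155A livers. Their log2 fold changes were negative for 6 and positive for 2, with a median of -0.17 beside -0.0050 over all genes tested. At an unadjusted p under 0.05, 1 of the 8 (12.5%) was lower and none was higher, beside 289 of all genes (1.98%) that were lower. The number of negative values depended on the libraries and the scaling, and lay between 5 and 7 of 8 when a mouse was left out and at 7 of 8 with library size alone, when the median of all genes was -0.042.

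The other A plexins had lower means in S155A livers, none of them passing the test. Plxna2, a receptor for class 6 semaphorins and, with a neuropilin, for semaphorin 3A, was at 19.6, 15.2, 24.3 and 22.2 CPM in WT replicates 1 to 4. In S155A livers it was at 16.9, 18.6, 11.9 and 9.39 CPM. The S155A livers held the lowest values, but WT replicate 2 was below S155A replicates 1 and 2. This gave a log2 fold change of -0.52 (SE 0.22, unadjusted p = 0.0440 and adjusted p = 0.993 with edgeR). Without WT replicate 2 the 2 genotypes no longer overlapped, a state that 6.04% of all genes shared when that mouse was left out.

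Plxna4, the co-receptor with neuropilin 1 for semaphorin 3A in neurons, was at 2.48, 2.57, 2.08 and 3.0 CPM in WT livers. The S155A values were 1.84, 0.827, 2.38 and 2.33 CPM. S155A replicate 2 was far below all other mice, and the other 3 S155A livers lay among or just under the WT livers. The log2 fold change was -0.46 (SE 0.32, adjusted p = 0.993 with edgeR), and it was -0.21 without S155A replicate 2. That mouse also had the lowest sum of stellate markers, 121 CPM, and the part of this in the result was not tested.

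Plxna1, which pairs with neuropilins and also binds class 6 semaphorins, was at 11.3, 12.4, 10.4 and 11.8 CPM in WT and 14.9, 7.96, 8.50 and 10.3 CPM in S155A livers. S155A replicate 1 was the highest of all 8 mice and the other 3 S155A livers the lowest, with means of 11.5 ± 0.851 CPM in WT and 10.4 ± 3.14 CPM in S155A livers. The log2 fold change was -0.14 (SE 0.19, adjusted p = 0.993 with edgeR), with 0.030 without the 3 libraries that stood apart and a difference in mean log2 CPM of 0.10 among low numbers and of -0.46 among high numbers.

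For Plxnb2 and Plxnb1, the most abundant plexins, the genotypes differed by less than the spread between mice. Plxnb2, a receptor of class 4 semaphorins and also of angiogenin, was at 156, 234, 223 and 188 CPM in WT and 195, 256, 214 and 196 CPM in S155A livers. The values of the genotypes interleaved, with a log2 fold change of 0.10 (SE 0.15, adjusted p = 0.993 with edgeR). Plxnb1, the receptor of semaphorin 4D, was at 97.5, 67.6, 77.1 and 56.4 CPM in WT livers. In S155A livers it was at 91.4, 81.8, 82.6 and 46.8 CPM. Replicate 4 was lowest and replicate 1 highest in each genotype, and the log2 fold change was 0.019 (SE 0.22, adjusted p = 0.999 with edgeR), whose sign changed with the library left out and with library size alone.

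Plxnb3, a receptor of semaphorin 5A, was near the limit of detection, with 5 to 15 counts in WT and 1 to 14 counts in S155A libraries. Its mean was 0.194 ± 0.112 CPM in WT and 0.174 ± 0.118 CPM in S155A livers, and the log2 fold change of -0.17 (SE 0.68, adjusted p = 0.996 with edgeR) turned positive without WT replicate 1 (0.012), WT replicate 3 (0.16) or S155A replicate 4 (0.21). A difference was not detectable at this depth.

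Plxnd1, the vascular receptor, was at 21.0, 30.9, 27.2 and 25.7 CPM in WT and 25.1, 21.1, 23.4 and 23.2 CPM in S155A livers. The lowest value of all belonged to WT replicate 1 and the 3 highest to the other WT livers. Its log2 fold change was -0.18 (SE 0.13, adjusted p = 0.993 with edgeR). Plxnc1, the semaphorin 7A receptor, was at 12.3, 8.59, 9.83 and 13.3 CPM in WT and 10.7, 4.61, 7.73 and 11.5 CPM in S155A livers. The genotypes overlapped over all 8 mice, with a log2 fold change of -0.35 (SE 0.27, adjusted p = 0.993 with edgeR). Among mice with low numbers, and again among those with high numbers, both S155A livers were below both WT livers, as was so for 439 of all genes tested (3.0%). With low or high number as a block, the log2 fold change of Plxnc1 was -0.39 (adjusted p = 0.945 with edgeR).

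**Figure D3:**
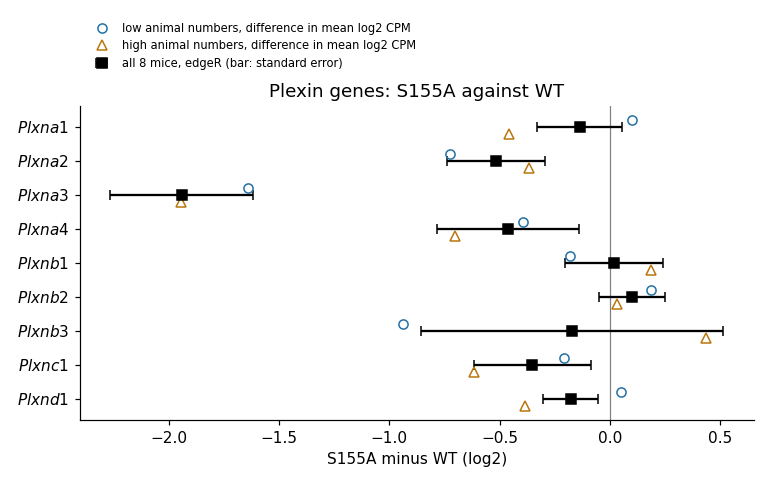
Difference between S155A and WT livers for each plexin on the log2 scale, as edgeR's log2 fold change with its SE over all 8 mice (squares) and as the difference in mean log2 CPM within the low (circles) and high (triangles) animal numbers. Plxna3 lies at -1.94, and the other plexins between -0.52 and 0.10.

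Plxnc1 and Plxnb2 were the plexins whose values separated by animal number. Plxnc1 ranged from 10.7 to 13.3 CPM in the 4 livers with low numbers and from 4.61 to 9.83 CPM in the 4 with high numbers. Plxnb2 went the other way, from 156 to 196 CPM with low numbers and from 214 to 256 CPM with high numbers. Neither gene overlapped between low and high numbers, as was so for 6.85% of all genes tested. With genotype in the model, the log2 fold change of high against low numbers was -0.66 for Plxnc1 (SE 0.17, adjusted p = 0.205 with edgeR) and 0.34 for Plxnb2 (SE 0.10, adjusted p = 0.255). No gene was called at an adjusted p under 0.05 in this fit, in which 1877 genes (12.8%) had an unadjusted p under 0.05. Whether the genotype difference itself depended on the animal numbers was tested by an interaction term in edgeR. The smallest adjusted p among the 8 plexins other than Plxna3 was 0.499, for Plxna1 (unadjusted p = 0.0722), followed by Plxnd1 (unadjusted p = 0.0735). No gene was called in that fit, in which 1622 of 14629 genes had an unadjusted p under 0.05.

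Of 20 semaphorins listed as ligands, 17 could be tested and none was called, with 9 log2 fold changes above and 8 below 0 and a median of 0.011. Sema7a and Sema3e, ligands of plexins C1 and D1, were among the 3 with too few counts. The highest CPM, not corrected for length, was that of Sema4g, a class 4 semaphorin, at 405 CPM in WT and 408 CPM in S155A livers, with a log2 fold change of 0.011 (SE 0.13, adjusted p = 0.9995 with edgeR) that was -0.032 with library size alone. Sema4a (78.7 and 73.9 CPM) and Sema6d (12.7 and 11.4 CPM), the next by CPM, had log2 fold changes of -0.091 (SE 0.11, and 0.022 without the 3 libraries that stood apart) and -0.16 (SE 0.18). Sema6d is a ligand of plexin A1 and Sema4a a semaphorin of immune cells.

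Of the semaphorins with the smallest p, Sema4c, a ligand of plexin B2, was at 4.59, 7.08, 5.18 and 5.21 CPM in WT and 4.12, 3.83, 4.07 and 2.81 CPM in S155A livers. All S155A livers were below all WT livers, 1 of 17 semaphorins (5.88%) beside the 1.36% of all genes, and the log2 fold change was -0.57 (SE 0.20, adjusted p = 0.993 with edgeR). Sema6b, a ligand of plexin A4, was higher in mean, at 5.12 CPM in WT and 7.11 CPM in S155A livers, with overlapping values and a log2 fold change of 0.47 (SE 0.19, adjusted p = 0.993). Sema3a, the secreted ligand of neuropilin 1 and A plexins, had a log2 fold change of 1.53 (SE 0.89, adjusted p = 0.993) that came from S155A replicate 2 at 1.97 CPM, against 0.0742 to 0.370 CPM in the other 7 livers, and it was -0.16 without that mouse.

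Among 11 receptor partners of plexins, 9 could be tested and none was called, with 4 log2 fold changes above and 5 below 0 and a median of -0.051. Nrp1, the co-receptor of A plexins for class 3 semaphorins and also of VEGF receptors, was at 63.5, 38.6, 50.9 and 57.6 CPM in WT replicates 1 to 4. In S155A livers it was at 39.0, 33.7, 27.7 and 38.0 CPM. The genotypes overlapped only in WT replicate 2, which was just below S155A replicate 1. The log2 fold change was -0.61 (SE 0.17, unadjusted p = 0.00440, adjusted p = 0.993 with edgeR), and it lay between -0.73 and -0.50 under all alternatives run. Nrp1 is known from sinusoidal endothelial and stellate cells. The sums of 8 endothelial markers were 186 to 241 CPM in WT and 182 to 233 CPM in S155A livers, with 3 log2 fold changes above and 5 below 0. Stellate markers summed to 254 to 263 CPM in WT replicates 1 to 3, to 340 CPM in WT replicate 4, and to 121 to 267 CPM in S155A livers. All 6 stellate markers had negative log2 fold changes (median -0.38), none called, and the part of either cell type in the Nrp1 values was not tested.

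The other partners were closer to level. Nrp2, a co-receptor for semaphorins 3C and 3F, was at 42.8 CPM in WT and 43.1 CPM in S155A livers (log2 fold change 0.012, SE 0.12), and Met, the hepatocyte growth factor receptor that associates with B plexins, was at 53.0 and 51.2 CPM (-0.051, SE 0.15). Both signs changed under other libraries or scalings. Kdr, a VEGF receptor of endothelium, was at 25.0 and 19.4 CPM (-0.37, SE 0.28), and Tyrobp, the adaptor of TREM2 that works with plexin A1 in myeloid cells, at 8.85 and 10.5 CPM (0.24, SE 0.35). The adjusted p of these 4 genes was between 0.993 and 0.999 with edgeR.

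**Figure D4:**
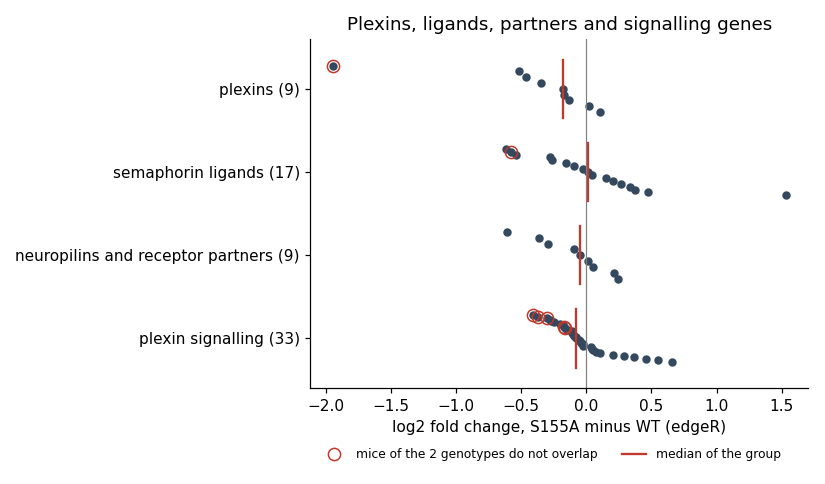
Log2 fold change of S155A against WT livers (edgeR) for 9 plexins, 17 semaphorins, 9 receptor partners and 33 signalling rows of the table, each dot a row, with the median as a line and a ring where the mice of both genotypes do not overlap. The medians are -0.18, 0.011, -0.051 and -0.081, and rings mark Plxna3, Sema4c and 5 signalling genes.

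Downstream of the receptors, the 34 listed signalling genes had 35 rows in the table, since the symbol Mical3 stands for a pair of identifiers. Of these rows 33 could be tested and none was called, with 11 log2 fold changes above and 22 below 0 and a median of -0.081. At an unadjusted p under 0.05, 2 of 33 (6.06%) were lower, beside 1.98% of all genes. In 5 of 33 (15.2%) every S155A liver was below every WT liver, beside 1.36% of all genes. These 5 were Mical3 (ENSMUSG00000051586), Farp1, Rap1a, Arhgef12 and Arhgef11. Rap1a and Arhgef11 are named after their values were seen. This list, like those of the semaphorins and receptor partners, was chosen with earlier results of these data known. Its shares beside all genes are therefore descriptions and no test of the list. Counted in either direction, 5 to 8 rows were without overlap when single mice were left out, beside 3.77% to 6.74% of all genes. Without the 3 libraries that stood apart it was 9 rows, beside 17.4% of all genes.

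Mical3 belongs to the MICAL enzymes, which oxidise proteins such as actin and of which some act downstream of A plexins. Its row ENSMUSG00000051586 was at 36.0, 29.8, 34.1 and 32.1 CPM in WT and 27.4, 26.7, 23.7 and 21.4 CPM in S155A livers. Every WT liver was above every S155A liver, and the log2 fold change was -0.41 (SE 0.11, unadjusted p = 0.00402, adjusted p = 0.993 with edgeR). The other row with this symbol, ENSMUSG00000003178, was at 6.52 CPM in WT and 5.36 CPM in S155A livers on average, with overlapping values and a log2 fold change of -0.28 (SE 0.17, adjusted p = 0.993). That identifier is not in the annotation used here, and how reads were divided between the rows is uncertain.

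Farp1, an exchange factor that binds A plexins, was at 19.0, 19.0, 17.9 and 19.6 CPM in WT and 15.02, 16.03, 14.8 and 12.5 CPM in S155A livers. The WT livers lay within a narrow band above all S155A livers, and the log2 fold change was -0.37 (SE 0.11, unadjusted p = 0.00559, adjusted p = 0.993 with edgeR). Rap1a, a GTPase switched off by the plexin GTPase-activating domain, was at 31.1, 26.8, 27.4 and 27.8 CPM in WT and 23.6, 17.0, 25.8 and 25.2 CPM in S155A livers (log2 fold change -0.30, SE 0.14). It was furthest down in S155A replicate 2, and the log2 fold change without that mouse was -0.18.

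Arhgef12 and Arhgef11, the RhoA exchange factors that bind the tail of B plexins, had narrow ranges in both genotypes. Arhgef12 was between 119 and 136 CPM in WT and between 102 and 118 CPM in S155A livers (log2 fold change -0.17, SE 0.095). Arhgef11 was between 32.3 and 36.6 CPM in WT and between 29.6 and 31.7 CPM in S155A livers (log2 fold change -0.17). The gap between the genotypes was under 1 CPM for each of them.

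Mras, a Ras-related GTPase, was at 2.58 CPM in WT and 4.07 CPM in S155A livers on average, with a log2 fold change of 0.66 (SE 0.30) and overlapping values. Rhoa and Rac1, small GTPases that organise the actin cytoskeleton, were at 114 and 112 CPM (log2 fold change -0.022, SE 0.093, its sign changing without S155A replicate 1) and at 99.8 and 93.0 CPM (-0.10, SE 0.091). The adjusted p of the tested signalling genes named here was between 0.993 and 0.996 with edgeR.

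No tested gene near Plxna3 on the X chromosome had an unadjusted p under 0.05. Fam50a, the nearest tested gene before it at 8917 bases, was at 18.7 CPM in WT and 19.4 CPM in S155A livers, with a log2 fold change of 0.049 (SE 0.14, adjusted p = 0.996 with edgeR). Lage3, 6587 bases after it, was at 15.1 and 14.8 CPM, with a log2 fold change of -0.027 (SE 0.13, adjusted p = 0.996). Of the 21 other tested genes whose midpoints lay within 500 kb, 0 had an unadjusted p under 0.05 and 0 were without overlap. Over all genes tested these shares were 3.40% and 2.30% with edgeR's test and scaling, so 0 of 21 is close to them. The log2 fold changes of the 21 genes ran from -0.42 to 0.37. Plxnb3, on the same chromosome, has Srpk3 after it, at 0.194 CPM in WT and 0.179 CPM in S155A livers, with a log2 fold change of -0.10 (SE 0.75, adjusted p = 0.999 with edgeR).

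**Figure D5:**
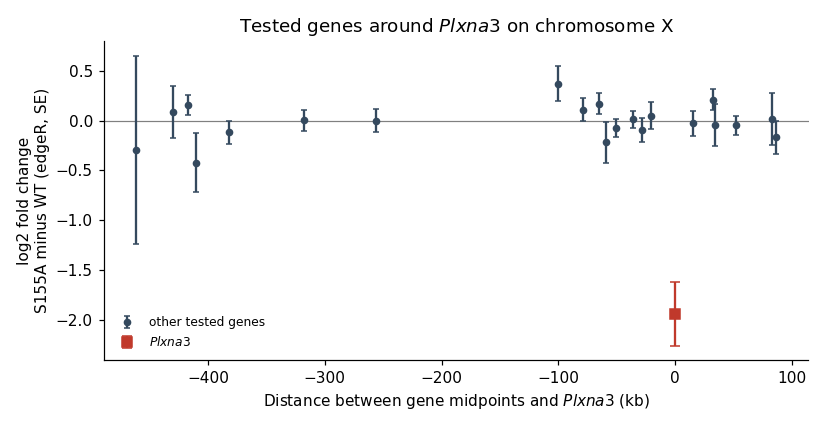
Log2 fold change of S155A against WT livers (edgeR, bars are SE) of the tested genes within 500 kb of Plxna3, plotted by the distance in kb between gene midpoints. Plxna3 lies at -1.94, and the 21 other genes lie between -0.42 and 0.37.

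The genes most like Plxna3 over the 8 livers, by Pearson's r of log2 CPM among all tested genes, were Ulk2 (0.974), Ptcd1 (0.956), Fras1 (0.950), Sptb (0.934) and Rhoq (0.917). After the mean of each genotype was taken out, they were Rsph3b (0.990), Fam26e (0.981), Abtb1 (0.980), Yipf3 (0.974) and Uqcc3 (0.973), so the lists had no gene in common. For Plxnb2, the plexin with the highest level, the same measure with genotype means taken out gave Nedd8 (0.984), Uqcr11 (0.983), Ndufa13 (0.980), Mospd3 (0.978) and Lamtor4 (0.976). Each is among the largest values over all genes tested, from only 8 libraries, and describes likeness only. The r values of Plxna3 over all livers include the genotype difference by which it was picked. Within genotypes, Plxna3 varied mostly among WT livers (log2 CPM 0.0149 to 1.20) and little among S155A livers (-1.13 to -0.897). Its r values with genotype means taken out therefore rest largely on the WT livers.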

How the data were processed

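The deposited values are salmon estimated counts, which the authors scaled for average transcript length but not for library size, in 8 libraries of 39709785 to 54540864 counts. The submitters' processing notes name GRCm38, STAR and DESeq2 without versions or roles, and the annotation release and strand setting are not given in the sources used here. Columns were matched to mice by animal number. Estimated counts were rounded, filtered with filterByExpr and compared in edgeR 4.0.16 (R 4.3.3) by its quasi-likelihood test with TMM scaling, all 8 mice and no block, and p-values were adjusted by Benjamini-Hochberg over 14629 genes. SEs came from the F statistic, and log2 CPM used a prior count of 2. The authors' own comparisons were not used. Precision is that of 4 mice a group and of the counts given, and rounding or splitting of reads by salmon's model affects low genes most.

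Coordinates, exon lengths and sequences are from GENCODE release M21, which holds 45143 of the 45706 identifiers. The text names all plexins, from each of 3 pathway lists (every row with a listed symbol) the genes called, the 3 with the smallest p and the 3 with the highest CPM, the nearest tested gene on each side of Plxna3 and Plxnb3 (1 of these is not reported here), and the 5 genes most like Plxna3 and the highest plexin. Members and lists were chosen with earlier results of these data known. Alternatives were DESeq2 1.42.0, limma-voom (limma 3.58.1), other scalings and filters, a robust fit, blocks for replicate number and animal series, another gene length, and leaving out libraries. The tests were first run on simulated counts that held no animal-number effect and in which genes as low as Plxnb3 were left unchanged. That run therefore says nothing about differences in such low genes or about the animal numbers.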

Additional observations from a re-analysis of the deposited data

Results flagged for a closer look

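No plexin value of a single mouse stood apart from its group by Dixon's test, but 4 marker sums did, of 34 groups searched, where chance gives about 1 in 20 or 1.7 in all. The sum of 6 stellate markers was 340 CPM in WT replicate 4, against 254 to 263 CPM in the other WT livers, and the sum of 10 lymphocyte markers was 47.7 CPM in the same mouse, against 19.7 to 22.0 CPM. Lymphocyte markers summed to 2066 CPM in S155A replicate 3, against 28.6 to 39.1 CPM in the other S155A livers. Pancreatic acinar markers summed to 41.8 CPM in WT replicate 2, against 4.18 to 5.62 CPM in the other WT livers.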

How the results depend on the processing

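Of 107 recomputed counts of genes, 99 were the same (equal to the value reported, or within 1.5 times it where it was above 0) and 8 were not. Most of the 99 were counts of called genes that were 0 both times, so they say little about how stable the results are. Most of the 8 were counts of plexins without overlap. DESeq2 in place of edgeR called 6 genes in the whole table and 1 plexin. That plexin is Plxna3, whose difference chose the family, so this count is no test of it. The number of plexins without overlap between genotypes was 1 to 2 when single mice were left out. It was 2 without WT replicate 1 (Plxnd1 joined Plxna3), WT replicate 2 (Plxna2), WT replicate 3 (Plxna4) or S155A replicate 1 (Plxna1). It was also 2 (with Plxna2) without WT replicate 2 and S155A replicate 3, and without these and WT replicate 4, alternatives added after seeing the data. Of all genes tested, 2.30% were without overlap when every mouse was kept. That share rose to 5.69%, 6.04% and 3.77% without WT replicates 1, 2 and 3, and to 6.74% without S155A replicate 1. Without the 2 or 3 libraries that stood apart it was 8.59% and 17.4%, so such a gain was common to all genes. Of 169 recomputed log2 fold changes, 12 changed sign, of Plxnb1, Plxnb3 or Plxna1. Plxna1 was 0.030 without the 3 libraries that stood apart. Plxnb1 was -0.016 with library size alone, -0.073 and -0.25 without 2 or 3 libraries that stood apart and -0.094 to 0.19 when single mice were left out, and Plxnb3 was -0.54 to 0.21. Over the longest transcript, the level of Plxna2 moved to 1.56 and that of Plxnb2 to 32.0 CPM per kilobase. The deviations of same-numbered mice from their group means correlated at 0.057, 0.17, -0.11 and 0.13, and 5 of 8 libraries were closest to their own number. The labels do not tie same-numbered mice to each other, and since not every pair was above 0.1 the numbers were not taken as pairs. With the replicate number as a block, 0 plexins were called, as without it. The low counts of Plxna3 and Plxnb3 limit their precision.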
